A study of Arabidopsis thaliana with 12 samples.

Results

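Described here are 8 *Arabidopsis thaliana* genes whose products transcribe DNA, connect the polymerase to its regulators, move nucleosomes or read and change histones. They are *NRPB1* (AT4G35800), *SWP* (AT3G04740), *SYD* (AT2G28290), AT1G20670, *ATRX* (AT1G08600), *PKDM7D* (AT1G08620), *GTE4* (AT1G06230) and *HUA2* (AT5G23150), each measured by 1 of 22746 probe sets of the ATH1 array that are not controls. The genes were selected on the outcome: all 8 belong to the 290 genes that the study itself picked on these arrays as differing between a sugar and xylose (Xyl). Their differences from Xyl, and between sugars, are therefore a description of chosen genes and carry no test.

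RNA polymerase II makes messenger RNA, and the Mediator complex passes signals to it from transcription factors bound to DNA. Remodelling enzymes of the Snf2 family use ATP to slide, evict or exchange nucleosomes, which opens or closes DNA to that machinery. Bromodomain proteins bind acetylated histones, and histone demethylases take methyl groups off histone tails.

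The samples were RNA from a habituated (hormone-independent) cell suspension derived from roots of *A. thaliana*, kept in the dark in hormone-free medium. The cells of all 12 samples had grown for 7 d on 87 mM Xyl as the carbon source, so the control cells saw Xyl both before and during the treatment. They then received 1 mM fructose (Fru), glucose (Glc), sucrose (Suc) or, as the control, Xyl for 1 h, with 3 arrays per sugar. The flasks of an experiment were filled from a common culture, and the arrays with the same replicate number deviated together (r from 0.772 to 0.938 in 18 pairs), so each sugar array was also set against the Xyl array of its own replicate. The suspension is a single line without tissues, so it stands for cultured cells only. Its label could not be checked: none of 6 green leaf markers and none of 5 markers of dividing cells had a named probe set. Values are log2 RMA values, a background-corrected and quantile-normalised signal on which a difference of 1 is a doubling. Across all probe sets the median difference from Xyl was 0.0021, 0.0066 and 0.00018 (log2) with Fru, Glc and Suc. No probe set reached an adjusted p under 0.05 with Fru or Glc in limma, and 4 did so with Suc only when the replicate number was a block. The probe sets with an unadjusted p under 0.05 numbered 585, 480 and 463 (Fru, Glc, Suc), or 2689, 2679 and 2443 with the block.

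All 8 genes had a lower mean with each of the 3 sugars than with Xyl. Fru gave a median log2 difference of −0.39, Glc of −0.31 and Suc of −0.55, which are signals 23.6%, 19.2% and 31.7% lower. In each of the 3 pairs of arrays per sugar the sugar array was below the Xyl array of its replicate for all 8 genes. The genes were read on the same arrays and all 3 sugars were set against the same 3 Xyl arrays, so these comparisons are not independent. All 3 Fru arrays lay below all 3 Xyl arrays for 5 of the 8 genes, where 2.63% of all probe sets did so. For Glc it was 4 genes (2.59% of probe sets) and for Suc 7 genes (3.26%). At the unadjusted threshold of 0.002 that the study's methods used, 1, 1 and 4 of the 8 genes passed in limma with Fru, Glc and Suc, against 0.0835%, 0.044% and 0.0659% of all probe sets. With the replicate number as a block these were 4, 3 and 6 genes, against 1.09%, 1.24% and 1.06%. Since the genes were chosen by these contrasts, nothing is read from the counts. In RNA from whole culture, fewer cells with a transcript and less transcript per cell cannot be told apart.

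**Figure D1:**
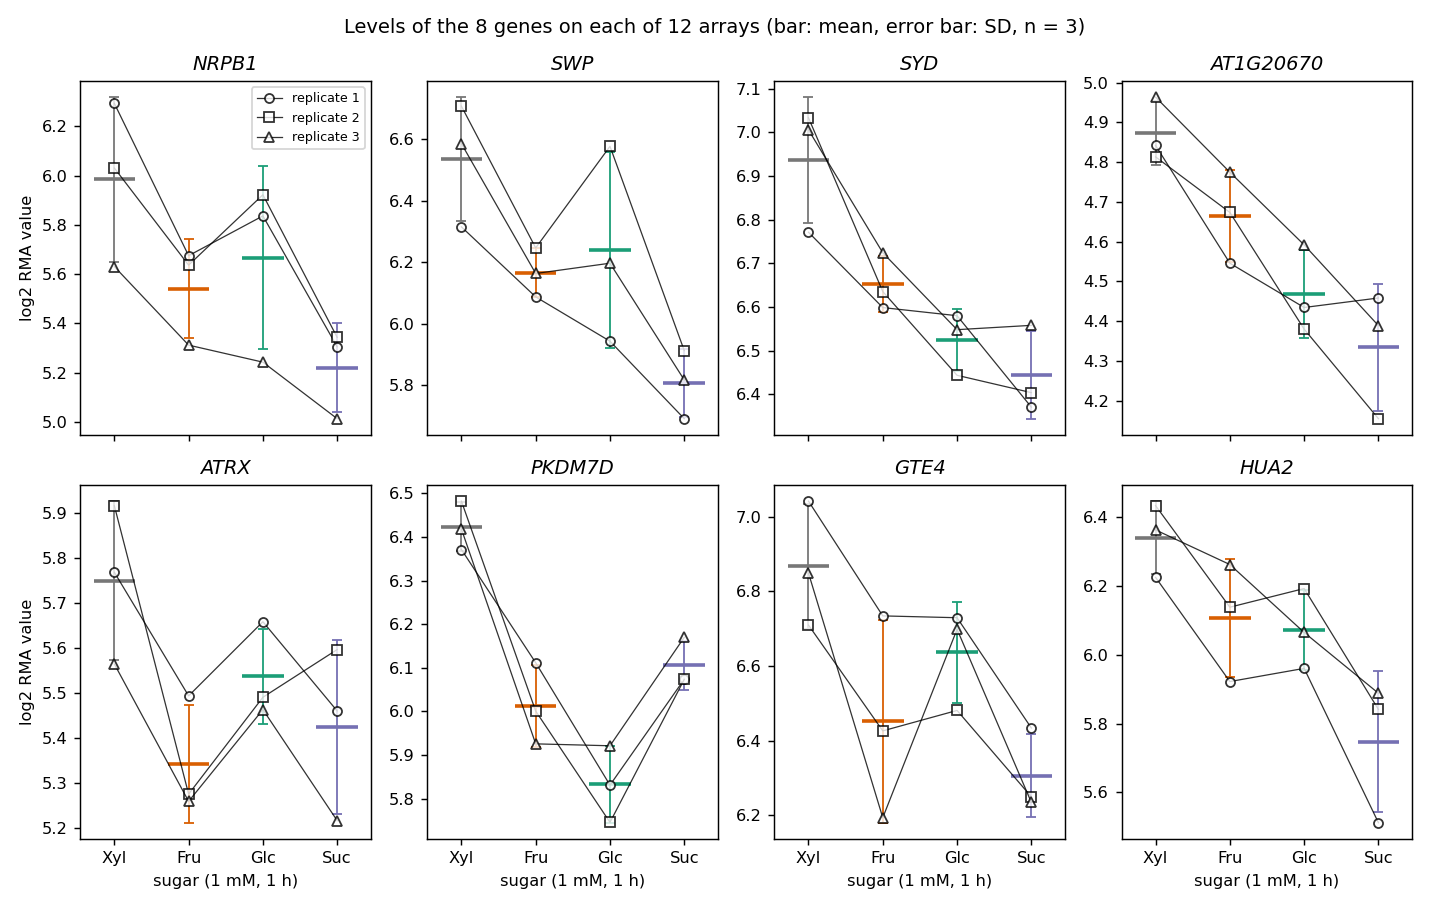
Level of each gene (y axis, log2 RMA value, not from 0) on the 12 arrays by sugar (x axis). Symbols joined by thin lines are replicates 1 to 3, bars are means and error bars are the SD (n = 3). Each line starts highest at Xyl, and 6 of the 8 genes had their lowest mean with Suc.

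*NRPB1* encodes the largest subunit of RNA polymerase II, the one that carries the C-terminal repeat domain. On the arrays of replicates 1, 2 and 3 it stood at 6.29, 6.03 and 5.63 with Xyl, at 5.67, 5.64 and 5.31 with Fru, at 5.84, 5.92 and 5.24 with Glc and at 5.30, 5.34 and 5.01 with Suc (log2 RMA value). The Suc arrays were the lowest in every replicate and did not overlap the Xyl arrays, whereas some Fru and Glc arrays were above Xyl replicate 3, a replicate that was low throughout. Relative to Xyl its mean was at −0.44 (Fru), −0.32 (Glc) and −0.76 (Suc) on the log2 scale (standard error 0.22, and 0.11 with the replicate block). The value with Suc, a signal 41.2% lower, was the lowest of the 24 mean differences of these genes.

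*SWP* encodes Mediator subunit 14, which joins the modules of that complex and is known for its effect on cell number in leaves. Its levels with Xyl were 6.31, 6.71 and 6.59 in replicates 1 to 3, against 6.09, 6.25 and 6.16 with Fru, 5.94, 6.58 and 6.20 with Glc and 5.69, 5.91 and 5.82 with Suc. The Fru and Suc arrays lay wholly below the Xyl arrays, and Glc overlapped them through replicate 2. Fru, Glc and Suc put it at −0.37, −0.30 and −0.73 (log2 difference, standard error 0.16, and 0.10 with the block). *NRPB1* and *SWP* thus had signals 41.2% and 39.7% lower with Suc, and 18.6% to 26.5% lower with the hexoses.

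*SYD* encodes an ATPase of the SWI/SNF class, known from the maintenance of the shoot meristem. It was at 6.77, 7.03 and 7.01 with Xyl, at 6.60, 6.64 and 6.72 with Fru, at 6.58, 6.44 and 6.55 with Glc and at 6.37, 6.40 and 6.56 with Suc. None of the sugars overlapped Xyl. The differences of −0.28, −0.41 and −0.49 (log2, Fru, Glc and Suc) had a standard error of 0.10 with or without the block.

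AT1G20670, annotated as *BRD1*, encodes a bromodomain protein found in plant SWI/SNF complexes. It gave 4.84, 4.81 and 4.96 with Xyl, 4.55, 4.67 and 4.77 with Fru, 4.43, 4.38 and 4.59 with Glc and 4.46, 4.15 and 4.39 with Suc, again without overlap between any sugar and Xyl. Its means were ordered as those of *SYD*, at −0.21 (Fru), −0.40 (Glc) and −0.54 (Suc) from Xyl (log2, standard error 0.11, and 0.10 with the block). In both genes Glc was below Fru in 3 of 3 replicates and Suc below Glc in 2 of 3, and the mean step from Glc to Suc was smaller than its SD.

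*ATRX* encodes a remodeller of the Snf2 family that in *Arabidopsis* takes part in depositing the histone variant H3.3. It was at 5.77, 5.92 and 5.56 with Xyl, at 5.49, 5.28 and 5.26 with Fru, at 5.66, 5.49 and 5.46 with Glc and at 5.46, 5.60 and 5.22 with Suc. Only the Fru arrays were clear of the Xyl arrays. This was the 1 gene whose lowest mean came with Fru, at −0.41 (log2), against −0.21 with Glc and −0.33 with Suc (standard error 0.13, and 0.10 with the block). Glc exceeded Fru by 0.16, 0.22 and 0.20 in the 3 replicates, while Suc was below Fru in 2 of 3.

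*PKDM7D* encodes a JmjC-domain demethylase of histone H3 lysine 4, also called JMJ16. Its levels were 6.37, 6.48 and 6.42 with Xyl, 6.11, 6.00 and 5.93 with Fru, 5.83, 5.75 and 5.92 with Glc and 6.07, 6.07 and 6.17 with Suc. No array of the 3 sugars reached a Xyl array, and the replicates lay close together. Here Glc gave the lowest mean, at −0.59 (log2) or a signal 33.6% lower, with −0.41 for Fru and −0.32 for Suc (standard error 0.09 with or without the block). Suc was above Glc by 0.24, 0.33 and 0.25 in replicates 1 to 3. *ATRX* and *PKDM7D* lie on chromosome 1 with 2 annotated genes between them, 1 of which codes for a protein (AT1G08610). The log2 values of that gene relative to Xyl were 0.09 (Fru), 0.06 (Glc) and −0.02 (Suc), with an error of 0.34, and it passed in neither fit.

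*GTE4* encodes a protein with a bromodomain and an extra-terminal domain, the plant counterpart of the BET readers of histone acetylation. It was at 7.04, 6.71 and 6.85 with Xyl, at 6.73, 6.43 and 6.19 with Fru, at 6.73, 6.48 and 6.70 with Glc and at 6.43, 6.25 and 6.23 with Suc. Suc alone was clear of Xyl. Its log2 differences ran −0.42 (Fru), −0.23 (Glc) and −0.56 (Suc), each ± 0.15 (standard error, 0.11 with the block). The Fru value leaned on replicate 3, at −0.66 against −0.31 and −0.28 in the others.

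*HUA2* encodes a PWWP-domain protein that acts in the processing of *AGAMOUS* pre-mRNA and in the expression of *FLC*. Its levels were 6.22, 6.43 and 6.36 with Xyl, 5.92, 6.14 and 6.26 with Fru, 5.96, 6.19 and 6.06 with Glc and 5.51, 5.84 and 5.89 with Suc. Glc and Suc were clear of Xyl, Glc by a margin of 0.03. Its differences of −0.23, −0.27 and −0.59 (log2, standard error 0.13, and 0.09 with the block) placed Fru and Glc side by side, and their order changed between replicates.

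**Figure D2:**
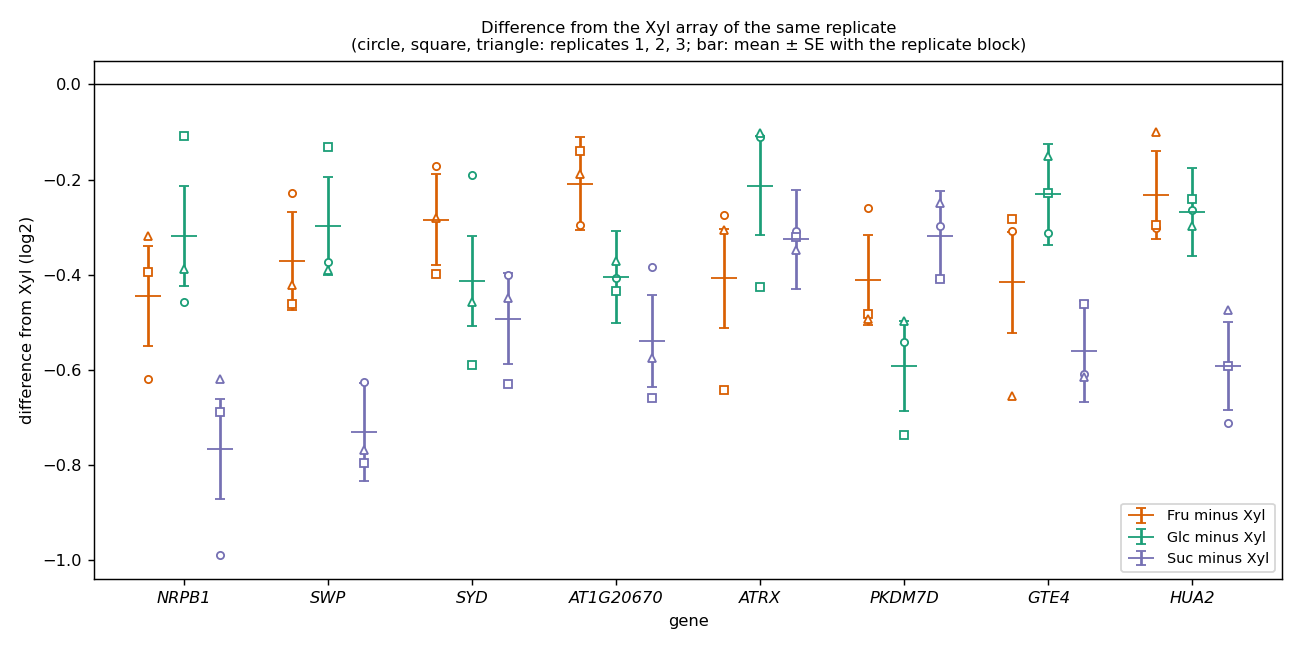
Log2 difference of each sugar array from the Xyl array of the same replicate (y axis) for each gene (x axis). Circles, squares and triangles are replicates 1 to 3, and bars are means with the standard error of the fit with the replicate block. All points lie below 0, and Suc is lowest for 6 genes, Glc for *PKDM7D* and Fru for *ATRX*.

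The sugars thus ranked differently among the 8 genes. Suc was below Fru in 3 of 3 replicates for *NRPB1*, *SWP*, *SYD*, AT1G20670 and *HUA2*, with mean differences of −0.32, −0.36, −0.21, −0.33 and −0.36 (log2). It was below Glc in 3 of 3 for *NRPB1* (−0.45), *SWP* (−0.43), *GTE4* (−0.33) and *HUA2* (−0.32). For *NRPB1*, *SWP*, *GTE4* and *HUA2* the order of the 2 hexoses was not the same in all replicates. *SYD*, AT1G20670 and *PKDM7D* were lower with Glc than with Fru in 3 of 3, and *ATRX* was higher. With 3 replicates per sugar an exact two-sided permutation test of unpaired arrays cannot go below p = 0.1. For paired differences in 3 replicates, as counted here, the floor is higher.

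A list of 180 other genes of the same complexes and families was set beside the 8, and 59 of them had a named probe set. Of the 59, 6 belong to the study's own selection on these contrasts, so counts over them are not independent of it. None of the 59 passed the threshold of 0.002 with any sugar in limma or by the methods' t-test. In limma 7, 3 and 5 had an unadjusted p under 0.05 with Fru, Glc and Suc, where 2.57%, 2.11% and 2.04% of all probe sets did, and of the 53 outside the selection 1, 0 and 0 did. With the replicate block 1 was lower with Fru, 0 passed with Glc and 2 were lower with Suc, of which 0, 0 and 1 lay outside the selection, and none had an adjusted p under 0.05. The shares of all probe sets past that threshold were the 1.09%, 1.24% and 1.06% given above. The median log2 difference of the 59 genes was −0.10, −0.03 and −0.04 with Fru, Glc and Suc, and 44, 36 and 34 of them were below 0. Over the 53 outside the selection the median was −0.08, −0.02 and −0.04, with 39, 31 and 29 below 0. Of all 22746 probe sets 11269, 10985 and 11361 were below 0.

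The other subunits of RNA polymerase II stood apart in sign from *NRPB1* with Suc. Of 14 listed, 6 had a named probe set (*NRPB6A*, *NRPB6B*, *NRPB7*, *NRPB9A*, *NRPB9B* and *NRPB12*, all small subunits), and none passed with any sugar, with or without the block. With Suc all 6 had log2 differences above 0, from 0.12 to 0.28 (standard errors 0.23 to 0.47, and 0.09 to 0.13 with the block). *NRPB1*, chosen for its difference from Xyl, was at −0.76. With Fru the 6 ranged from −0.18 to −0.01 and with Glc from −0.14 to 0.28. The largest subunits of RNA polymerases I and III, *NRPA1* and *NRPC1*, are relatives of *NRPB1*. *NRPA1* was at −0.41, −0.37 and −0.49 from Xyl (log2, order of sugars as before, standard error 0.56, and 0.15 with the block) and *NRPC1* at −0.33, −0.31 and −0.24 (standard error 0.62, and 0.10 with the block). Both were below Xyl in 3 of 3 replicates with every sugar, but neither passed in either fit (adjusted p from 0.23 to 0.42 with the block in limma). Both were low in replicate 3: with Xyl *NRPA1* stood at 5.31, 5.67 and 4.66 and *NRPC1* at 6.71, 6.53 and 5.08 in replicates 1 to 3.

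Of 32 listed Mediator subunits other than *SWP*, 14 had a named probe set, with medians of −0.07, −0.03 and −0.08 (log2, Fru, Glc and Suc). Only 1 passed, with the block and Suc: AT1G23230, at 5.28, 5.46 and 4.76 with Suc and 5.63, 5.84 and 5.15 with Xyl in replicates 1 to 3. Its difference was −0.37 (log2, standard error 0.09 with the block, adjusted p = 0.17 in limma). The 14 ranged from −0.39 to 0.26 with Fru, from −0.25 to 0.21 with Glc and from −0.37 to 0.25 with Suc. AT5G19480 and *MED19A* were the lowest with Fru, at −0.39 and −0.38 (standard errors 0.30 and 0.35), each below Xyl in 2 of 3 replicates. AT1G26665 was at −0.25 with Fru (standard error 0.11), with all Fru arrays below the Xyl arrays, and did not pass. Of 21 factors of transcript elongation and of the polymerase C-terminal domain 2 were named. *SPT16*, a subunit of the histone chaperone FACT and one of the genes the study selected, was at −0.32, −0.23 and −0.38, and *SPT4-1* at 0.19, 0.25 and 0.27 (log2), and neither passed. None of 8 general transcription factors had a named probe set.

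Among SWI/SNF subunits 8 of 14 were named and none passed, with medians of −0.12, −0.06 and −0.14 (log2). *CHR23*, an ATPase related to *SYD*, was at −0.24, −0.10 and −0.22 (standard error 0.33). The bromodomain relatives of AT1G20670 were at −0.16, −0.01 and −0.09 (AT1G76380, standard error 0.09) and at −0.04, −0.22 and −0.24 (AT5G55040, standard error 0.38, and 0.10 with the block). AT5G55040 has 2 named probe sets, and the one with the higher mean level is given. The scaffold subunit gene *SWI3D* was at −0.31, −0.18 and −0.24, and the core subunit gene *BSH* at −0.05, −0.02 and −0.04. Of 18 other remodellers of the Snf2 family 6 were named and none passed. *INO80*, which exchanges or moves nucleosomes in its own complex, was the lowest of them with each sugar at −0.41, −0.33 and −0.17 (standard error 0.23), while the medians were −0.05, −0.02 and −0.01. Of 15 histone chaperone and H3.3 genes 3 were named and none passed, with *HIRA*, an H3.3 chaperone of the study's selection, at −0.25, −0.06 and −0.39 (log2, Fru, Glc and Suc).

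Histone demethylases gave 12 named genes of 24 and medians of −0.11, −0.06 and −0.08 (log2). *ELF6*, a JmjC protein known to act on histone H3 lysine 27 and one of the genes the study selected, was at 5.78, 5.87 and 5.77 with Fru and 6.12, 6.18 and 6.32 with Xyl. It passed with Fru and the block, at −0.40 (standard error 0.10, adjusted p = 0.18 in limma). The relatives of *PKDM7D* were at −0.25, −0.20 and −0.11 (AT1G63490) and at −0.12, 0.02 and 0.07 (AT2G38950), and neither passed. Of 13 genes of H3 lysine 4 and 36 methylation 2 were named. *ATX3*, a methyltransferase gene of the study's selection, was above Xyl by 0.27, 0.36 and 0.06, and did not pass. Of 11 GTE genes 2 were named and neither passed, AT1G17790 at 0.07, 0.14 and −0.0003 and AT5G46550 at −0.05, 0.07 and 0.02, against −0.42, −0.23 and −0.56 for *GTE4*. Of 6 genes listed beside *HUA2*, *HULK3* and *HEN4* were named, both only by the ratios of the study's selection, to which they belong. *HULK3*, a paralogue of *HUA2*, was at −0.28, −0.20 and −0.36 and did not pass. *HEN4*, an RNA-binding protein gene that acts with *HUA2* on *AGAMOUS*, was at 4.93, 4.77 and 4.83 with Suc and 5.18, 5.15 and 5.42 with Xyl, and passed with Suc and the block at −0.41 (standard error 0.10, adjusted p = 0.17 in limma).

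**Figure D3:**
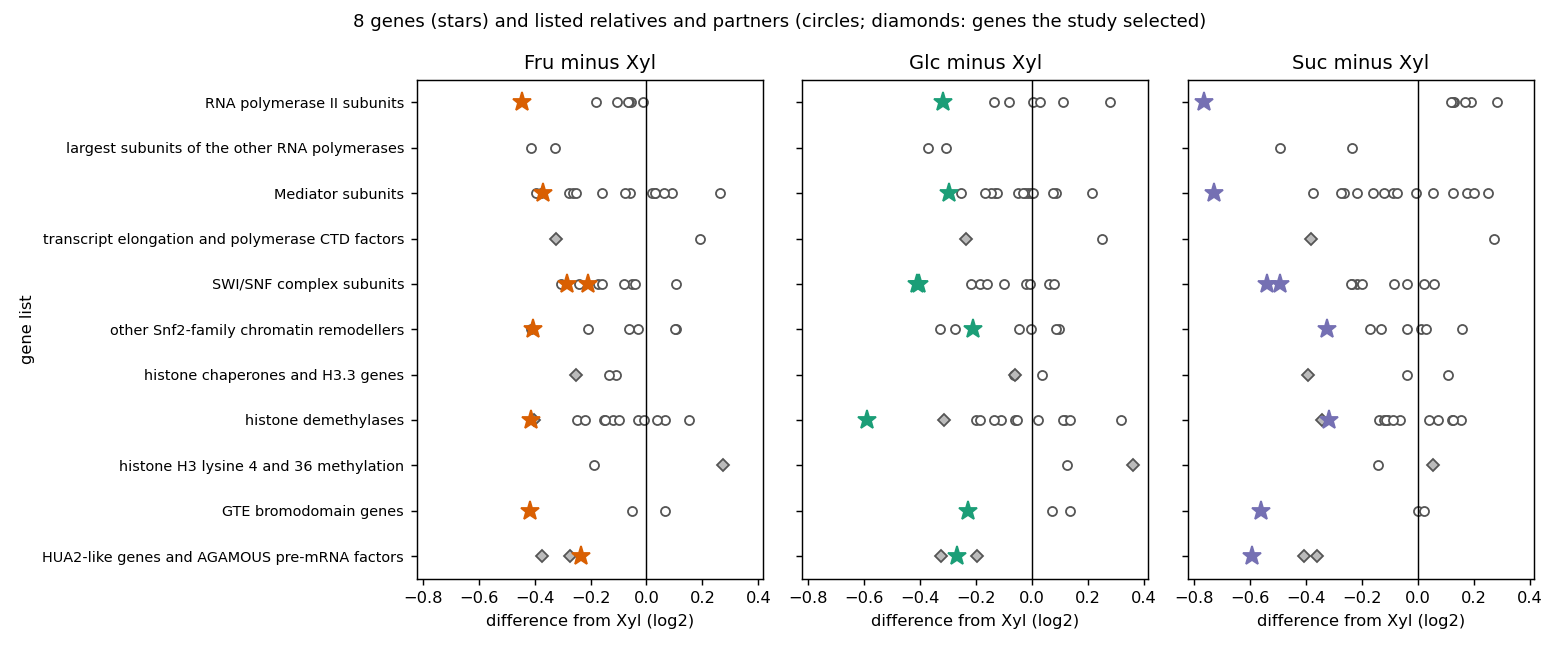
Log2 difference from Xyl (x axis) of the 8 genes (stars) and of 59 listed genes (circles, and diamonds for 6 that the study selected) by list (y axis), with 1 panel per sugar. With Suc the star of *NRPB1* is at −0.76 while the 6 small subunits of RNA polymerase II lie from 0.12 to 0.28.

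The 8 genes are long. Length was not a criterion of the selection, but it is not independent of it. In the reference annotation their lengths from first to last transcribed base were 7571 bp (*NRPB1*), 6995 bp (*SWP*), 17067 bp (*SYD*), 3960 bp (AT1G20670), 9937 bp (*ATRX*), 7226 bp (*PKDM7D*), 4094 bp (*GTE4*) and 7249 bp (*HUA2*). The median of 13347 named genes was 2117 bp. Among these, 6 of the 8 were among the longest 10%, above 4248 bp, and *SYD* was longer than 99.9% of genes. The 1327 other genes of that class had median log2 differences of −0.08, −0.08 and −0.09 with Fru, Glc and Suc, and 66.6%, 66.9% and 71.4% of them were below 0. Of all 22746 probe sets 11269, 10985 and 11361 were. The study selected 83 of the 1327, where it selected 290 genes over the 22746 probe sets. These bases are unlike. The 1327 are named genes, and 130 probe sets had a name only because the study selected them. Selected genes are thus more frequent among named genes by construction. With the replicate block 2.03%, 2.79% and 4.22% of the 1327 passed the threshold of 0.002. Of all probe sets 1.09%, 1.24% and 1.06% did so, a comparison with the same limit. Without the 83 the medians of the other long genes were −0.07, −0.06 and −0.08. Among the listed genes, the 24 above 4248 bp had medians of −0.23, −0.19 and −0.15, and the 35 shorter ones −0.06, −0.0022 and 0.02. All 6 listed genes of the study's selection are among the 24, and the other 18 had medians of −0.18, −0.15 and −0.13. The 6 named small subunits of RNA polymerase II were 1397 to 1950 bp long.

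When the trend with gene length was taken out of each array, all 24 mean differences of the 8 genes were still below 0, from −0.61 to −0.05 (log2). *NRPB1* with Suc went from −0.76 to −0.61 and *SWP* with Suc from −0.73 to −0.59. *SYD*, the longest, moved most, to −0.05, −0.17 and −0.18 with Fru, Glc and Suc. *ATRX* was then at −0.25, −0.06 and −0.12. The array also carries probe sets at the 3′ and 5′ ends of control transcripts, whose difference grows as RNA is cut short. The means of the 4 groups for 3′ minus 5′ ran from 2.06 to 2.39 for GAPDH (log2). They ran from 4.12 to 4.42 for actin and from 1.63 to 1.76 for ubiquitin. On single arrays GAPDH ran from 1.92 to 2.55. For GAPDH the 3′ minus 5′ value relative to Xyl was −0.12, −0.25 and 0.08 (log2, Fru, Glc and Suc). For actin it was −0.24, 0.06 and −0.17 and for ubiquitin −0.01, 0.02 and −0.11. The part of gene length or RNA integrity in the differences of the 8 genes was not tested.

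**Figure D4:**
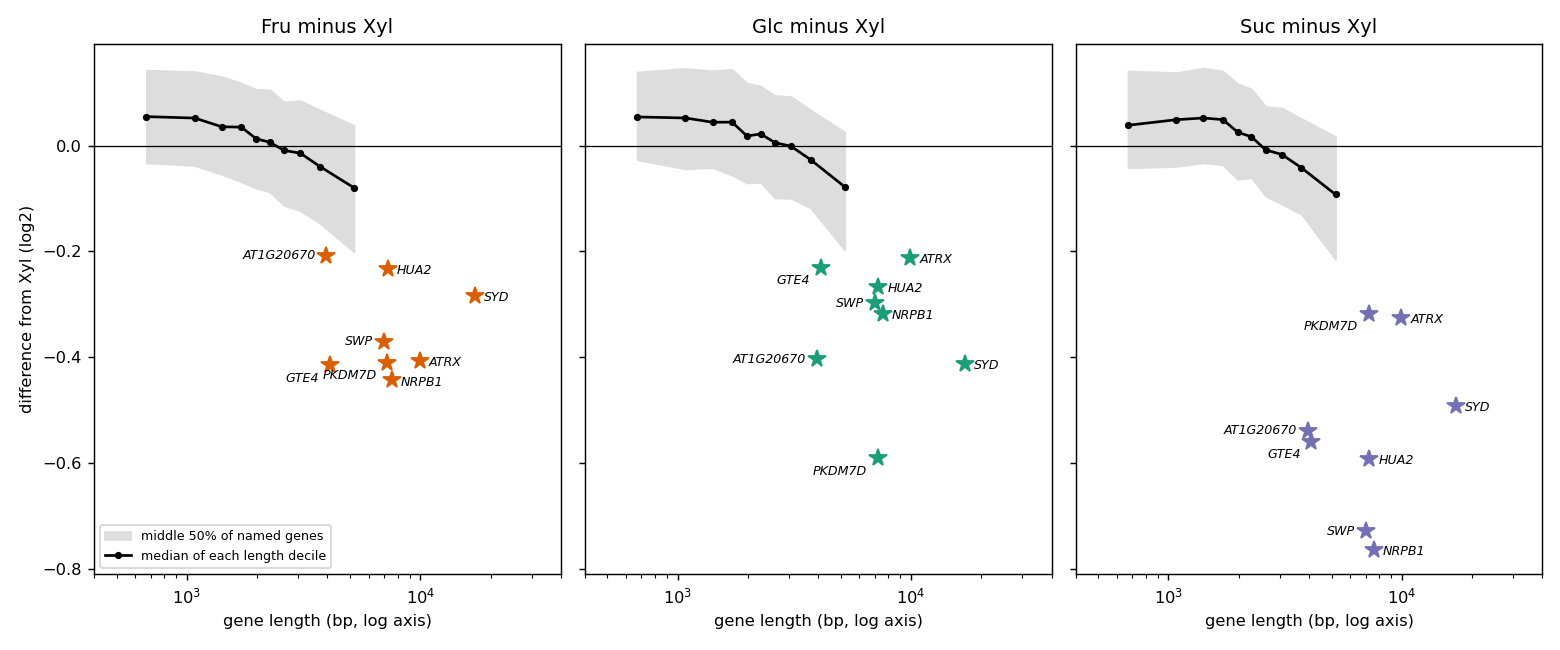
Log2 difference from Xyl (y axis) against gene length (x axis, bp, log axis), 1 panel per sugar. The other named genes were cut by length into classes of 10%, the line joins their medians and the grey band holds their middle 50%. Stars are the 8 genes, all lower than the median of the longest class. The line ends at 5196 bp, and the stars of the 6 longest of the 8 lie to its right.

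The 8 genes differed in how far their levels varied between replicates. Limma's F-test over the 3 replicate numbers, with the sugar in the model, called 54.2% of all probe sets at an adjusted p under 0.05. The spread between replicates enters the test by which the study selected genes, so the levels of the 8 are given without one. *NRPB1* had means of 5.78, 5.73 and 5.30 over the 4 arrays of replicates 1, 2 and 3, the widest range of the 8. *SWP* was lowest in replicate 1, at 6.01 against 6.36 and 6.19, and so was *HUA2*, at 5.90 against 6.15 and 6.14. *GTE4* was highest in replicate 1, at 6.73 against 6.47 and 6.49. The range of the replicate means was 0.22 for *ATRX*, 0.17 for AT1G20670 and 0.13 for *SYD*. It was narrowest for *PKDM7D*, at 0.03, and that gene also had the smallest standard error of its differences from Xyl without the block.

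Relative to the mean of each replicate, the 8 genes were lower together on the sugar arrays than on Xyl, which their selection by these contrasts favours. On that scale all 28 pairs had a Pearson r above 0 over the 12 arrays, with a median of 0.74, so these r values carry the selected contrast. The highest was 0.96 (*NRPB1* with *HUA2*) and the lowest 0.39 (*NRPB1* with *PKDM7D*). With the mean of each sugar removed as well, so that only the scatter between flasks was left, the median r was −0.14 and 8 of 28 pairs were above 0. The same measure of the 8 genes with all other probe sets had a median of 0.0074. *NRPB1* and *HUA2* kept an r of 0.81 on this scale, while *GTE4* and *HUA2* were at −0.68. All pairs share the same 12 arrays, so these values are given as a description.

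**Figure D5:**
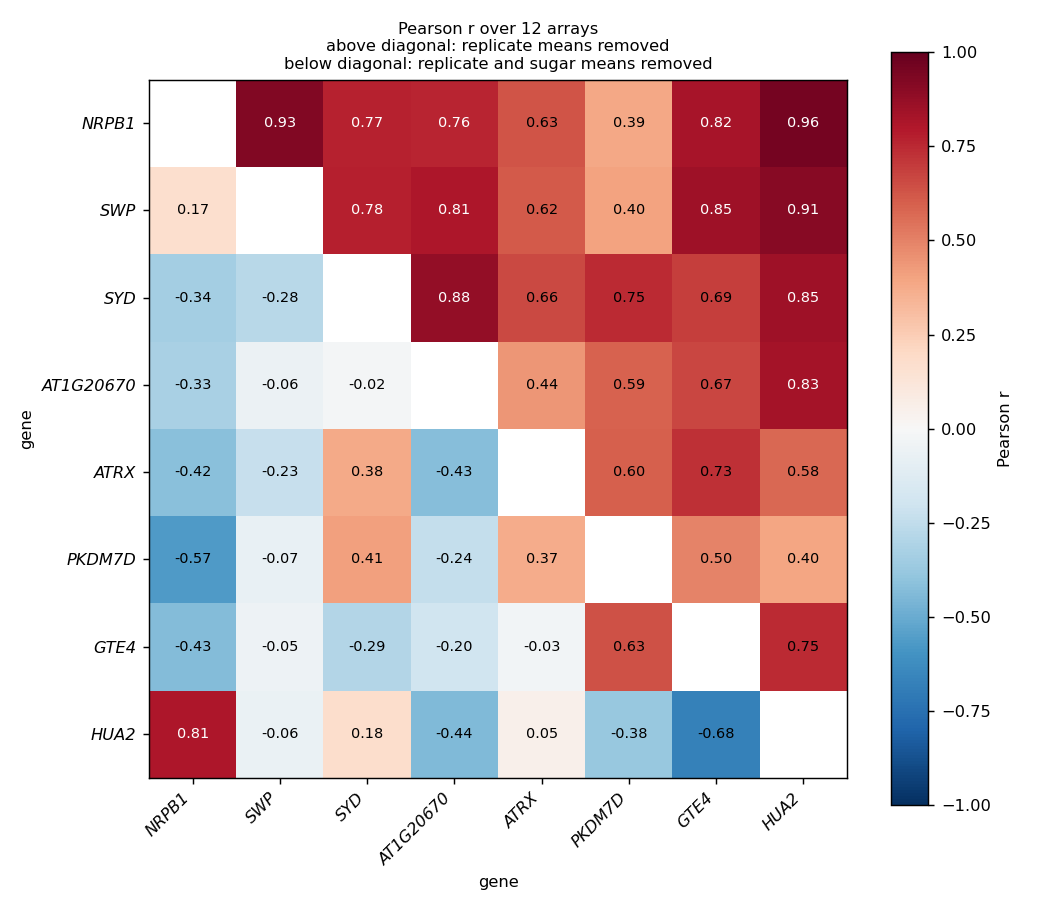
Pearson r over 12 arrays for each pair of the 8 genes (x and y axes, colour from −1 to 1). Above the diagonal replicate means were removed and r runs from 0.39 to 0.96, and below it sugar means were removed too and r runs from −0.68 to 0.81.

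On the scale with replicate means removed, the gene most like each of the 8 was sought among 13489 named probe sets. The nearest were AT4G27330 (*SPL*) for *NRPB1* (Pearson r 0.94 over 12 arrays), AT5G08560 for *SWP* (0.96), AT4G17140 for *SYD* (0.97) and AT3G07100 (*ERMO2*) for AT1G20670 (0.96). For the others they were AT2G21920 for *ATRX* (0.96), AT1G04080 (*PRP39*) for *PKDM7D* (0.94), AT3G01780 (*TPLATE*) for *GTE4* (0.95) and AT3G63460 for *HUA2* (0.94). Of these, AT4G17140, *ERMO2*, *TPLATE* and AT3G63460 are themselves among the genes the study selected, which number 290 over the 22746 probe sets. This scale keeps the sugar means on which the 8 were chosen, which favours such genes as neighbours. Each r is also the highest of 13489, which favours high values. Nothing is read from either. The 3 genes closest to the mean of all 8 were AT1G13730, AT4G38760 and AT4G39920 (*POR*), with r of 0.94 each. Their own differences from Xyl were smaller than the medians of the 8, except for AT4G38760 with Glc, at −0.27, −0.32 and −0.42 (log2, Fru, Glc and Suc). AT1G13730 was at −0.09, −0.13 and −0.18, and *POR* at −0.08, −0.06 and −0.10.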

How the data were processed

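Affymetrix ATH1 arrays measured total RNA of 12 samples, 3 per sugar. The deposited log2 values were made by the authors with RMA (background correction, quantile normalisation between arrays, summary of probes per probe set). Affymetrix Expression Console, RMA and limma are credited in the processing notes of the submitters, without versions. The deposited comparisons of the authors (fold changes and p-values) were not used.

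Each sugar was compared with Xyl with limma 3.58.1 under R 4.3.3, in a single model of all 4 groups with 8 residual degrees of freedom and no block, after 64 control probe sets were left out. Calls were made at an unadjusted p under 0.002 and a Benjamini-Hochberg adjusted p under 0.05. The replicate numbers of the labels pair the samples (18 pairs, r from 0.772 to 0.938, with culture divided between flasks in the methods), so a fit with the block, which leaves 6 degrees of freedom, stands beside results it changes.

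Probe sets were named by the platform annotation (13513 with 1 gene) or, where it names none, by the 3 sugar ratios in the paper's supplement (tolerance 1e-05). *NRPB1*, *SWP*, *SYD*, *GTE4* and *HUA2* were named by ratios only. A listed gene without such a name was not analysed here. Where a listed gene had more than 1 named probe set, the one with the highest mean level was used. Lengths and chromosomes are those of RefSeq for TAIR10.1. Coordinates are not printed because the assembly behind the array files is unnamed. The length trend was a lowess curve (statsmodels 0.14.6) per array. The fits were tested on simulated data. The 8 genes and the gene lists were chosen with earlier results of these data known. By rule, the 8, their listed relatives, listed genes past the threshold and those most alike in pattern were named, and any others after their values were seen. Alternatives were the block, median centring, a filter on dim probe sets, a trended variance, Student's t-test and each array left out. Removal of the length trend, of replicate 3 and of the genes the study selected from long genes was chosen after seeing the data. Arrays give no read depth, and 3 arrays per sugar limit the precision.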

Additional observations from a re-analysis of the deposited data

How the results depend on the processing

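The 24 mean differences of the 8 genes from Xyl were below 0 under every alternative run. The filter on dim probe sets left AT1G20670 out, so 21 of them had a value there. Removal of the length trend moved 8 of the 24 by more than the SD of the replicate differences. Median centring moved 1 and leaving out 1 array moved 18 of 288 by more than that. The 288 include values whose contrast lacks the array left out, and those cannot move. Of the 288, 10 changed by over 1.5 times, and not all of these are among the 18. *NRPB1* with Glc (−0.32) went to −0.11 without Glc replicate 3, −0.16 without Xyl replicate 1 and −0.50 without Xyl replicate 3. *NRPB1* with Fru (−0.44) went to −0.29 without Xyl replicate 1. *SWP* with Glc (−0.30) went to −0.15 without Glc replicate 1 and −0.47 without Glc replicate 2. *ATRX* with Glc (−0.21) went to −0.13 without Xyl replicate 2. *GTE4* with Glc (−0.23) went to −0.14 without Xyl replicate 1 and −0.15 without Glc replicate 2. *HUA2* with Fru (−0.23) went to −0.14 without Fru replicate 1. The number of all probe sets past the threshold of 0.002 with Fru (19) was 249 with the replicate block and 5 without dim probe sets. With Glc (10) it was 283 with the replicate block, 6 with each array centred on its median and 4 without dim probe sets. It was 18 with a trended variance and 25 by the unpaired Student's t-test. With Suc (15) it was 242 with the replicate block, 6 without dim probe sets, 7 with a trended variance and 41 by the unpaired Student's t-test. Leaving out 1 array gave 6 to 20 with Fru, 4 to 20 with Glc and 4 to 26 with Suc. The lowest counts, 6, 4 and 4, came without Xyl replicate 3, and the highest with Glc and Suc without Glc replicate 2 and without Fru replicate 3. Listed genes past the threshold (0 for each sugar) were 1 with Fru and 2 with Suc with the replicate block, and 0 to 1 with Suc when 1 array was left out, the 1 being without Xyl replicate 1. The block changed no other call of a listed gene. Without dim probe sets, where fewer genes remained, the medians of the other Snf2-family remodellers were −0.21, −0.28 and −0.13 with Fru, Glc and Suc, and with Glc those of the histone demethylases and SWI/SNF subunits were −0.11 and −0.09. The count of probe sets that differ between replicates stayed within 1.5 times. The causes were not tested.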
